A study of Rattus norvegicus with 40 samples.

Results

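The metabotropic glutamate receptor genes Grm2, Grm3, Grm4, Grm5, Grm7 and Grm8 were followed in 4 regions of the rat brain 12 months after a blast or a sham exposure. These 6 genes were picked by name from 25958 gene identifiers in the 4 deposited tables. The choice was made with the blast and sham read counts of these same libraries in view, so the levels and differences below are descriptions. Standard errors and the counts of genes that passed come from fits over all genes, and whether a member passed is a description too. Blast-exposed rats gave 5 libraries and sham-exposed rats gave 5 libraries of total RNA from each of the hippocampus, the amygdala, the anterior cortex and the cerebellum, 40 in all. Libraries are named by the numbers in their titles, 4, 8, 22 and 88 for blast, with the remaining one called the fifth blast library, and 11, 13, 14, 15 and 33 for sham. In the amygdala 1 sham library is called unnumbered because its column and its title give different numbers. The labels do not tie a number to an animal, so every spread below is one between libraries and may in part be technical. The sources used here give neither the strain, sex and age of the rats nor the strength and number of the blasts.

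Metabotropic glutamate receptors are G protein-coupled receptors that adjust synaptic transmission more slowly than the ion channel receptors for glutamate. Group I, with Grm5, signals through Gq proteins and phospholipase C and sits mainly on the postsynaptic side. Group II, with Grm2 and Grm3, and group III, with Grm4, Grm6, Grm7 and Grm8, signal through Gi and Go proteins, lower cyclic AMP and mostly curb transmitter release from nerve terminals. Grm3 is also made by astrocytes, and Grm4 is known for its place on the parallel fibre terminals of cerebellar granule cells.

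The tables place Grm2 (ENSRNOG00000013171) on chromosome 8 from 115344999 to 115358046 on the minus strand, and Grm3 (ENSRNOG00000005519) on chromosome 4 from 21317695 to 21560490 on the plus strand. Chromosome 4 also holds Grm7 (ENSRNOG00000005662), from 142780987 to 143367578 on the plus strand, and Grm8 (ENSRNOG00000021468), from 54474136 to 55407922 on the minus strand. Grm5 (ENSRNOG00000016429) lies on chromosome 1 from 151439409 to 151783392 on the plus strand. Grm4 (ENSRNOG00000000487) lies on the minus strand of chromosome 20 and is the only member whose gene model differs between tables. In the cerebellum table it is a protein-coding gene of 2616 bases from 6745744 to 6791519, and in the other tables a processed transcript of 3141 bases that starts at 6745682. The sources used here do not name the genome build of these positions.

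Promoter sequence was at hand for 3 of the 6 members, Grm5, Grm7 and Grm8, in RefSeq for build GRCr8. Grm5 and Grm7 are shown because both were lowest in the cerebellum of sham rats, as described further on. The 250 bases before the annotated start are given 5′ to 3′ on the strand of the gene, with each CG in capitals, for Grm5 at chr1:150733503-150733752 on the plus strand and for Grm7 at chr4:145286476-145286725 on the plus strand.
Grm5: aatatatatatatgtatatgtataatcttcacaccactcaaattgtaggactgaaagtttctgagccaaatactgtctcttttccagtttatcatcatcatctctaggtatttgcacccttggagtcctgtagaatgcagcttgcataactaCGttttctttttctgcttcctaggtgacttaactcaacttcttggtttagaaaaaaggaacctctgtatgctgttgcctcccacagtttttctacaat
Grm7: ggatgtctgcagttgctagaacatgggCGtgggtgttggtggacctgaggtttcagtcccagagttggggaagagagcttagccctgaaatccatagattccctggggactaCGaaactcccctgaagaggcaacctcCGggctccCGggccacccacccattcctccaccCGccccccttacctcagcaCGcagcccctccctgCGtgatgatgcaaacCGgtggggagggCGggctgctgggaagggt
The Grm5 stretch holds 1 CG and is 36.4% G or C, and the Grm7 stretch holds 9 and is 62.0% G or C. Only the letters CG were searched, which read the same on both strands and cannot overlap. Of 33469 RefSeq promoters 92.2% held at least 1 CG in these 250 bases, with a median of 5. Fewer than 1 was found in 7.83% of them and fewer than 9 in 61.5%. Both genes were lowest in the cerebellum and differed in this count, and the letters say nothing about which factors bind there.

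Library totals ran from 11268097 to 37128383 counts. Levels within a gene are CPM, read counts scaled to library size on 1 TMM scale over the 40 libraries, and levels between genes are the FPKM of the authors, which allow for gene length. In sham libraries all 5 hippocampus markers, all 5 cerebellar granule cell markers and 4 of 5 cortical layer markers had their highest mean CPM in their own region. Of the hippocampus markers Spink8 was near 0, at 0.19 CPM against 0.16 CPM in the amygdala, and Fibcd1 had no cerebellar value. Of the 5 amygdala markers Tac2 and Sim1 were highest in the amygdala, Tac2 at 7.61 CPM against 6.71 CPM in the hippocampus. Rspo2 and Nts were highest in the hippocampus and Cyp26b1 in the cerebellum. In bulk tissue, fewer cells of a type and less RNA per cell cannot be told apart. Of the anterior cortex libraries 4 stood apart, blast 8 and sham 11, 13 and 15, with 16577 to 17845 genes detected against 18744 to 20748 in the other 6. Summed CPM of 7 respiratory chain genes was 300.4 to 387 in these 4 and 643 to 728 in the other 6. Since 1 blast and 3 sham libraries are among them, blast and sham differences of the members in this region are given with and without them, and sham differences from this region with and without the 3 sham libraries. Values of the partner genes further on rest on all libraries.

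Grm2, an inhibitory autoreceptor of glutamatergic terminals, had the higher mean in blast libraries in all 4 regions. The ratio of the blast to the sham mean was 1.15 in the hippocampus, 1.53 in the amygdala, 1.66 in the anterior cortex and 1.74 in the cerebellum. None of the other 5 members kept 1 direction over the 4 regions. The share of all genes that did so is not given here, so this describes the members only. No member passed an adjusted p of 0.05 in edgeR's quasi-likelihood test in any region. Over all genes the test called none in any region, 0% of 15059 hippocampal, 15280 amygdalar, 14918 anterior cortical and 14769 cerebellar genes. DESeq2 called 1, 20, 0 and 5 genes in the same order, and no member among them. Unadjusted p-values under 0.05 were found in that order for 0, 1, 1 and 1 of the 6 members, each time Grm2, against 1.89%, 8.67%, 4.32% and 4.62% of all genes tested. No member had blast and sham libraries that did not overlap, a pattern seen in 0.272%, 1.52%, 0.644% and 0.731% of all genes tested.

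**Figure D1:**
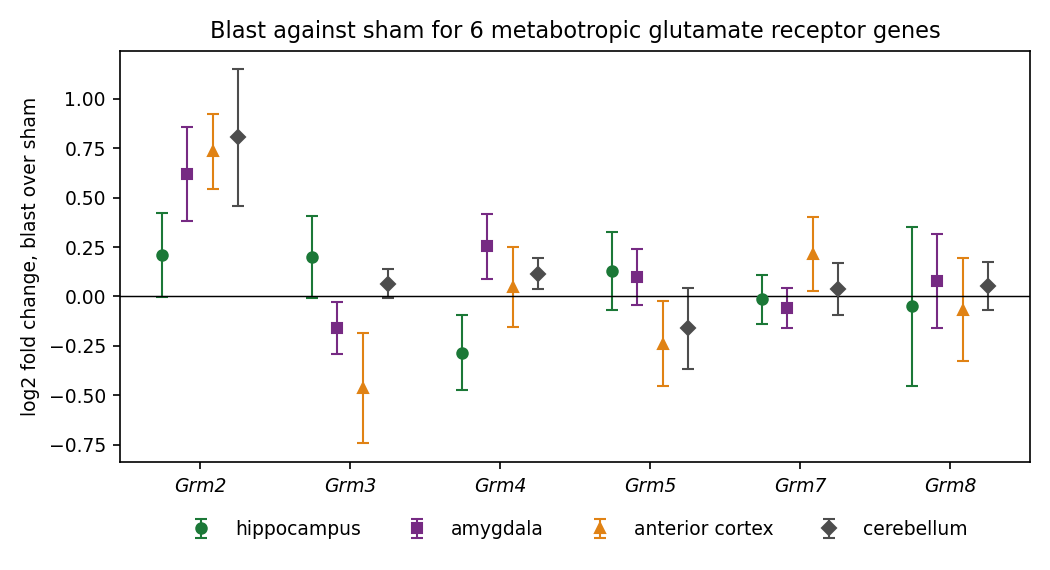
The plot gives the log2 fold change of blast over sham on the vertical axis for each of the 6 receptor genes, with 1 marker per region and bars of 1 standard error (edgeR, 5 blast and 5 sham libraries per region). Grm2 lies above 0 in all 4 regions, between 0.21 and 0.80, while the other 5 genes lie between -0.46 and 0.25.

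In the anterior cortex Grm2 stood at 66.5, 55.1, 84.5, 49.0 and 71.3 CPM in blast libraries 4, 8, 22 and 88 and the fifth blast library, against 40.6, 52.3, 33.1, 43.1 and 27.8 CPM in sham libraries 11, 13, 14, 15 and 33. All blast libraries but number 88 exceeded the highest sham library, and every blast library exceeded the sham median. Its log2 fold change was 0.73 ± 0.19 (SE) and ranked 4th by p among the 14918 genes tested. It was not called, and the smallest adjusted p of any member here was 0.7993 (edgeR). Grm2 was chosen with these counts in view, so the rank is a description. Grm2 read 40.6 to 55.1 CPM in the 4 libraries that stood apart and 27.8 to 84.5 CPM in the other 6. Within sham, libraries 11, 13 and 15, which stood apart, were the highest, at 40.6, 52.3 and 43.1 CPM against 33.1 and 27.8 CPM. Blast library 8, which also stood apart, lay within the range of the other blast libraries. Without the 4 that stood apart the log2 fold change was 1.16, with sham libraries 14 and 33 alone left as sham. It was the largest Grm2 value among the alternatives in this region, which began at 0.62. The 5 striatum markers, Drd2, Adora2a, Ppp1r1b, Rgs9 and Drd1, summed to 172 to 360 CPM in blast and 248 to 308 CPM in sham libraries. The 6 postsynaptic scaffold genes summed to 3897 to 5446 CPM in blast and 4506 to 7885 CPM in sham libraries. The part of these marker sums in the Grm2 values was not tested. The authors' deposited table gives Grm2 a log2 fold change of 0.56 here. Their values for the hippocampus, the amygdala and the cerebellum are 0.12, 0.18 and 0.07. Each is smaller than the edgeR value of its region, and why they differ was not tested.

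Amygdala levels of Grm2 were 53.2, 41.7, 39.7, 56.1 and 51.9 CPM in blast libraries 4, 8, 22 and 88 and the fifth blast library, against 59.0, 26.6, 21.6, 31.4 and 19.9 CPM in sham library 11, the unnumbered sham library and sham libraries 14, 15 and 33. All 5 blast libraries lay above 4 of the 5 sham libraries, and sham library 11 lay above all of them. This gave a log2 fold change of 0.62 ± 0.24 (SE). It was 0.96 without sham library 11, the highest of the alternatives here. Some marker sums also differed between blast and sham amygdala, while others hardly did. Glutamatergic neuron markers summed to 3933 to 4287 CPM in blast and 3860 to 4547 CPM in sham libraries. Astrocyte markers summed to 2308 to 3286 CPM in blast and 2403 to 3397 CPM in sham libraries. GABAergic neuron markers reached somewhat higher in blast, at 524 to 670 CPM against 458 to 614 CPM in sham libraries. The summed CPM of the 5 hippocampus markers, Prox1, Dsp, Fibcd1, C1ql2 and Spink8, was 43.6 to 57.7 in blast and 36.2 to 43.8 in sham amygdala. Taken singly, each of the 5 overlapped between blast and sham. Fibcd1 ran from 0.257 to 8.79 CPM in blast and from 0 to 0.552 CPM in sham libraries. Dsp reached lower in blast, at 2.31 to 5.62 CPM against 4.61 to 5.51 CPM in sham libraries. Prox1 and C1ql2 each had the lowest library in sham and the highest in blast. Spink8 was near 0, at 0.065 to 0.492 CPM in blast and 0.079 to 0.233 CPM in sham libraries. Respiratory chain genes summed to 622 to 821 CPM in blast and 541 to 669 CPM in sham libraries. Of the sham libraries, 11 was the highest and 14 and 33 were the lowest. The list of Purkinje cell markers held Pcp2, Pvalb, Calb1, Car8 and Itpka. Its genes summed to 249.67 to 289.7 CPM in blast and 224 to 255 CPM in sham amygdala. In sham cerebellum the same genes summed to 1808 to 2045 CPM, and the amygdala sum is not read as a sign of Purkinje cells. Lower in blast on the whole were postsynaptic scaffold genes, at 3321 to 3771 CPM in blast and 3407 to 4709 CPM in sham libraries, and mature oligodendrocyte markers, at 3278 to 3690 CPM in blast and 3409 to 4448 CPM in sham libraries. The part of these marker sums in the Grm2 values was not tested.

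Cerebellar Grm2 was the lowest of the 4 regions, with 24.01, 11.8, 30.4, 24.1 and 21.7 CPM in blast libraries 4, 8, 22 and 88 and the fifth blast library, against 25.7, 12.0, 5.94, 13.6 and 6.88 CPM in sham libraries 11, 13, 14, 15 and 33. Sham library 11 again lay above 4 of the 5 blast libraries, and blast library 8 lay among the low sham libraries. Blast over sham, the log2 fold change was 0.80 ± 0.34 (SE), and it ranged from 0.62 to 1.22 over the alternatives. These libraries rested on 202 to 416 Grm2 reads in blast and 87 to 406 in sham. The choroid plexus markers Ttr, Folr1, Kl, Clic6 and Slc4a5 summed to 2278 CPM in blast library 22, 1754 CPM in blast library 8 and 1045 CPM in sham library 33, against 37.4 to 109 CPM in the other 7. The first of these had the highest Grm2 of the blast libraries and the second the lowest.

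Hippocampal Grm2 differed least, with 58.7, 50.4, 77.6, 70.0 and 77.8 CPM in blast libraries 4, 8, 22 and 88 and the fifth blast library, against 81.0, 60.6, 32.8, 50.8 and 66.9 CPM in sham libraries 11, 13, 14, 15 and 33. The groups overlapped over most of their range, and the highest library of all was again sham library 11. Here the log2 fold change was 0.21 ± 0.21 (SE). It was 0.06 without sham library 14, the lowest of the 10. Blast library 8, the fifth blast library and sham library 11 were high in choroid plexus markers, at 4787 to 7877 summed CPM against 13.5 to 227.7 in the other 7, and without these 3 the log2 fold change was 0.40.

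**Figure D2:**
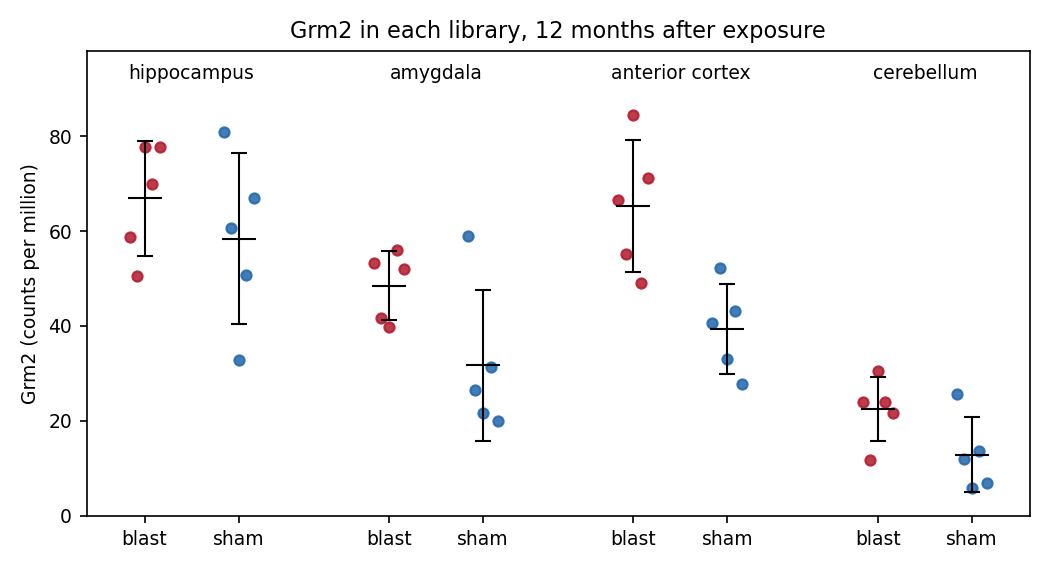
Grm2 is plotted in CPM for every library, with blast left of sham within each region, a horizontal bar at the mean and whiskers of 1 SD (n = 5 libraries per group). Blast libraries sit higher on average in every region, with the least overlap in the anterior cortex. In the other 3 regions the topmost sham point is library 11 at 81.0, 59.0 and 25.7 CPM.

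Over the 4 regions together, 17 of 20 blast libraries exceeded the sham median of their region for Grm2. The same 5 title numbers recur in each region, so the 20 are not independent replicates and the count is a description. No such count over all genes is given beside it. The mean blast effect was estimated by limma voom over all 40 libraries with the title number as a random block, a fit added after seeing the data. Its block used 1 correlation for all genes, 0.021. Deviations of Grm2 itself correlated by number at r from 0.272 to 0.823 between regions, though none of these passed after adjustment. The standard errors, ranks and calls below therefore do not allow for any likeness by number particular to Grm2. Grm2 had a mean log2 fold change of 0.66 ± 0.14 (SE), 7th by p among 16378 genes, and was not called, where 1 gene (0.00611%) was. Sham number 11 weighed on this value more than any other number. Without it the mean effect was 0.84 ± 0.13 and Grm2 was 1 of 2 genes called. Leaving out any other number gave 0.52 to 0.77, and Grm2 was then not called. It was not called either without the 4 anterior cortex libraries that stood apart, at 0.76 ± 0.16. The mean effect of the other 5 members lay between -0.08 and 0.09. By edgeR's interaction test no gene was called for a blast effect that differed by region, 0 of 16378 genes (0%) at the adjusted threshold and 779 (4.76%) at an unadjusted p under 0.05, with Grm2 in neither count.

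Whether a number that was high for a receptor in 1 region was high in another was examined by deviations from the group means. Of 36 relations, 6 pairs of regions for each of 6 genes, none passed after BH adjustment. For Grm2 all 6 pairs had a positive r, from 0.272 to 0.823. Without the 2 numbers farthest from the median in the first region named, r was negative in some pairs. It was -0.285 for hippocampus and amygdala, -0.049 for hippocampus and anterior cortex and -0.111 for amygdala and anterior cortex. It stayed positive for hippocampus and cerebellum at 0.345 and for anterior cortex and cerebellum at 0.616. With all numbers the highest r joined the amygdala and the cerebellum (exact permutation p = 0.0316, adjusted p = 0.471), with rho = 0.583 (exact permutation p = 0.172, adjusted p = 0.832) over n = 9 numbers. Without numbers 11 and 33, the farthest from the median in the amygdala, r was 0.579. Grm3 had r = 0.793 for the same regions (exact permutation p = 0.016, adjusted p = 0.471) and rho = 0.817 (exact permutation p = 0.0125, adjusted p = 0.450), and r was 0.555 without numbers 33 and 22. Grm5 had r = 0.744 there (exact permutation p = 0.0392, adjusted p = 0.471) and rho = 0.750 (exact permutation p = 0.0417, adjusted p = 0.750), and r was 0.684 without numbers 88 and 33. No other relation had an exact permutation p under 0.05.

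Grm3, the other group II gene, also found in astrocytes, was lower in blast anterior cortex with all libraries and close to equal without the 4 that stood apart. It stood at 127.0, 196, 91.9, 123 and 106 CPM in blast libraries 4, 8, 22 and 88 and the fifth blast library, against 240.5, 151, 102, 269.6 and 128 CPM in sham libraries 11, 13, 14, 15 and 33. The 4 libraries that stood apart were the 4 highest, at 151 to 269.6 CPM, and the other 6 lay at 91.9 to 128 CPM. For Grm3 the log2 fold change was -0.46 ± 0.28 (SE) with all 10 and -0.04 without the 4. Grm3 ranged over 52.8 to 84.5 CPM in blast and 36.5 to 79.4 CPM in sham hippocampus, and over 43.2 to 60.5 CPM in blast and 43.8 to 73.8 CPM in sham amygdala. The cerebellum was the tightest, at 33.8 to 40.5 CPM in blast and 31.6 to 42.2 CPM in sham libraries, and its log2 fold change was 0.06 ± 0.07.

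Grm5, the postsynaptic group I receptor of the forebrain, showed the same split in the anterior cortex. Its blast libraries 4, 8, 22 and 88 and the fifth blast library stood at 53.2, 73.6, 60.9, 61.2 and 65.0 CPM, against 75.1, 86.1, 55.1, 110.6 and 44.8 CPM in sham libraries 11, 13, 14, 15 and 33. Again the 4 libraries that stood apart were the highest, at 73.6 to 110.6 CPM against 44.8 to 65.0 CPM in the other 6. The log2 fold change was -0.24 ± 0.21 (SE) with all libraries and 0.26 without the 4, so its sign rested on them. In the hippocampus Grm5 lay at 67.5 to 94.8 CPM in blast and 39.8 to 92.1 CPM in sham libraries. The lowest of these, sham library 14, was also the one with the highest respiratory chain sum, 1226 CPM against 548 to 713 CPM, and without it the log2 fold change was -0.04 in place of 0.13 ± 0.20. The amygdala gave 51.6 to 85.02 CPM in blast and 45.0 to 71.3 CPM in sham libraries, a log2 fold change of 0.10 ± 0.14.

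**Figure D3:**
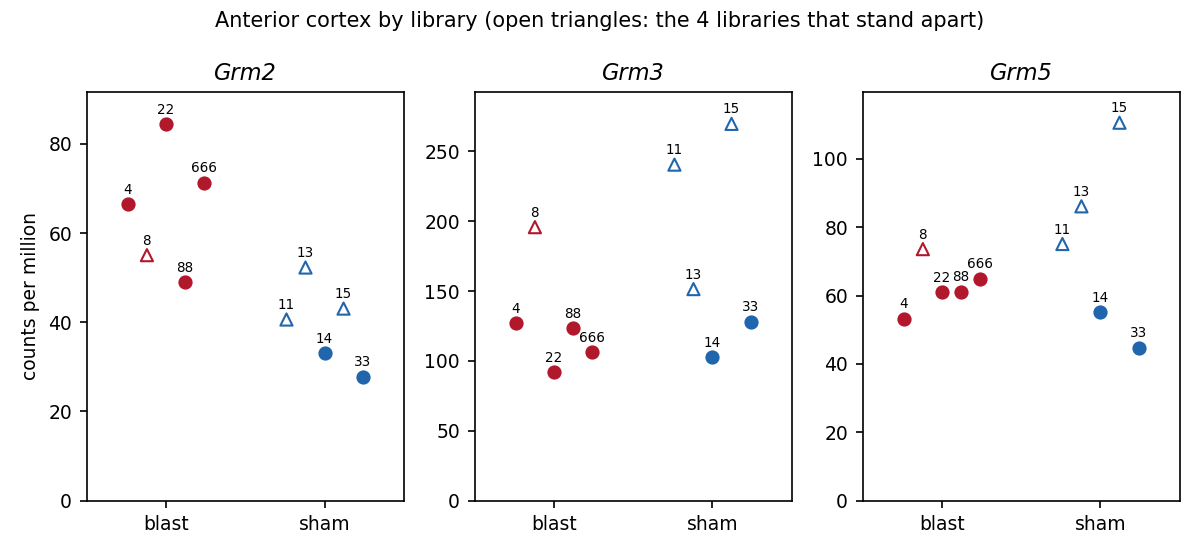
The CPM of Grm2, Grm3 and Grm5 are shown for the 5 blast and 5 sham libraries of the anterior cortex, labelled by title number, with open triangles for the 4 libraries that stood apart. For Grm3 and Grm5 the triangles are the 4 highest points whatever the group. For Grm2 they lie at 40.6 to 55.1 CPM, above the other sham points among sham and amid the other blast points among blast.

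The group III genes had log2 fold changes of -0.28 to 0.25 between blast and sham with all libraries. Grm4 gave 355 to 462 CPM in blast cerebellum and 333 to 411 CPM in sham cerebellum, a log2 fold change of 0.12 ± 0.08 (SE). In the amygdala it gave 11.2 to 15.3 CPM in blast and 8.25 to 13.9 CPM in sham libraries (0.25 ± 0.16), and in the hippocampus 5.01 to 7.68 CPM in blast and 5.81 to 10.6 CPM in sham libraries (-0.28 ± 0.19). Grm7, a receptor of the presynaptic active zone with low affinity for glutamate, had log2 fold changes between -0.06 and 0.22, with the highest in the anterior cortex, where 22.2 to 26.7 CPM in blast libraries compared with 16.98 to 32.4 CPM in sham libraries. Without the 4 anterior cortex libraries that stood apart the log2 fold change there was 0.29 for Grm7, 0.20 for Grm8 and 0.37 for Grm4, against 0.22, -0.07 and 0.05 with them, so the sign for Grm8 rested on them. Grm8, a presynaptic receptor with high affinity for glutamate, had log2 fold changes between -0.07 and 0.08. Its hippocampal level was so low that 21 to 32 reads in blast and 8 to 52 reads in sham libraries stood behind it, and the standard error there was 0.40.

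Between the regions of sham rats Grm4, Grm5 and Grm8 had log2 fold changes of up to 5.60, -4.56 and -3.04, while some members hardly differed between forebrain regions. The regional levels are among the values that chose these genes, and in these 6 comparisons 20.7% to 60.2% of the 15695 genes tested were called, so the counts below describe the members only. Against the hippocampus the cerebellum had 2 members called higher and 4 lower, where 25.4% of all genes were called higher and 27.9% lower (53.3% in all). Against the amygdala it had 1 higher and 4 lower, where 27.8% and 30.8% of all genes were (58.5% in all). The same numbers, 1 and 4, held against the anterior cortex, where the shares were 29.8% and 30.4% (60.2% in all). The hippocampus had 0 members called higher and 2 lower than the amygdala, where 9.14% and 11.5% of all genes were (20.7% in all). Over the anterior cortex it had 1 higher and 3 lower, where 22% and 21.7% of all genes were (43.6% in all). The amygdala had 0 members called higher and 2 lower than the anterior cortex, where 10.3% and 11.4% of all genes were (21.8% in all).

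**Figure D4:**
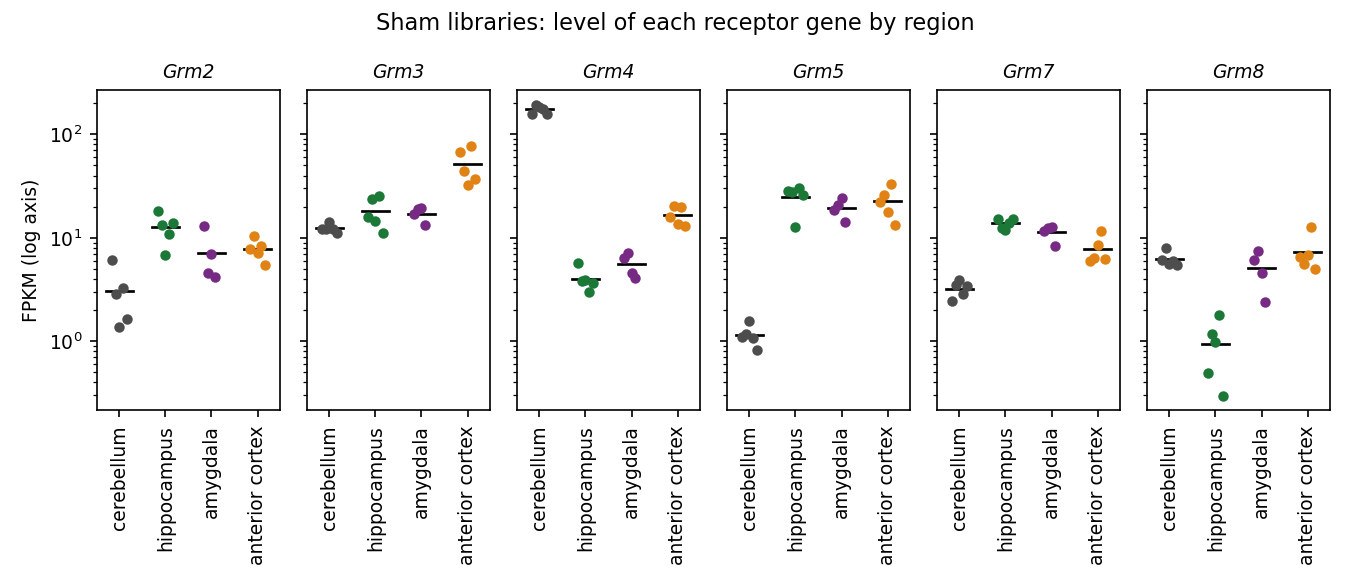
FPKM of each receptor gene is shown on a log axis for the sham libraries of each region, 4 in the amygdala and 5 in the others, with 1 point per library and a bar at the mean. Grm4 is highest in the cerebellum at a mean of 174 FPKM and Grm5 lowest there at 1.15, while Grm8 is lowest in the hippocampus at 0.950 and Grm3 highest in the anterior cortex at 51.6.

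Grm4 was by far highest in the cerebellum. Its sham levels there were 344, 411, 409.6, 377 and 333 CPM in libraries 11, 13, 14, 15 and 33, against 10.6, 7.35, 7.81, 5.81 and 7.38 CPM in the hippocampus. The order of the means ran from the cerebellum to the anterior cortex, the amygdala and the hippocampus, and only the last pair overlapped. The log2 fold change of the cerebellum was 5.60 ± 0.20 (SE) over the hippocampus, 5.05 ± 0.19 over the amygdala and 3.45 ± 0.18 over the anterior cortex (3.79 without sham libraries 11, 13 and 15 of that region). The hippocampus was below the amygdala by a log2 fold change of -0.55 ± 0.18 and was called, but not without the libraries numbered 13, 14 or 15 or the unnumbered one, where the value was -0.46 to -0.55. Nor was it called with the number as a block (-0.49) or with only the 10 libraries of these regions (-0.52). At the gene length of the other tables its mean in sham cerebellum would be 145 FPKM in place of 174, still the highest of the 6 members there.

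Grm5 ran the other way. It stood at 3.04, 3.24, 4.43, 2.98 and 2.27 CPM in sham cerebellum libraries 11, 13, 14, 15 and 33, against 82.9, 83.7, 39.8, 92.1 and 82.8 CPM in the hippocampus. Every forebrain library exceeded every cerebellar library, and the 3 forebrain regions overlapped with each other. The log2 fold change of the cerebellum was -4.56 ± 0.28 (SE) over the hippocampus, -4.25 ± 0.27 over the amygdala and -4.52 ± 0.28 over the anterior cortex (-3.96 without those 3 libraries). By FPKM Grm5 had the highest mean of the 6 members in sham hippocampus, at 25.02 ± 7.03 FPKM (SD, n = 5), and in sham amygdala, at 19.4 ± 4.11 FPKM (SD, n = 4, the libraries with FPKM used here). Grm3 came next in both, at 18.1 ± 6.07 and 17.1 ± 2.69 FPKM, within that spread.

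Grm3 had the highest mean FPKM of the 6 members in sham anterior cortex, at 51.6 ± 19.8 FPKM (SD, n = 5). Its mean was 178 ± 72.8 CPM there, against 58.1 ± 11.1 in the amygdala, 57.2 ± 18.5 in the hippocampus and 35.8 ± 3.87 in the cerebellum. The anterior cortex lay above all other regions without overlap, the hippocampus and the amygdala overlapped (log2 fold change -0.03 ± 0.23), and the hippocampus overlapped with the cerebellum. The gap to the anterior cortex depended on the libraries that stood apart there. The log2 fold change of the hippocampus over the anterior cortex was -1.63 ± 0.24 with them and -0.996 without sham libraries 11, 13 and 15, and that of the amygdala -1.60 ± 0.24 with them and -0.98 without. All of these passed the adjusted threshold in edgeR, and those without rest on 2 anterior cortex libraries. For Grm3 the cerebellum was below the hippocampus by -0.67 ± 0.24 and was called, but not without number 13 (-0.56) or number 15 (-0.51).

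Grm2 was highest in sham hippocampus, at 58.4 ± 18.0 CPM, then in the anterior cortex at 39.4 ± 9.42, the amygdala at 31.7 ± 15.9 and the cerebellum at 12.8 ± 7.92 (SD, n = 5 each). The 3 forebrain regions overlapped, and no pair of them passed the threshold. Hippocampus over amygdala, at 0.88 on the log2 scale, did pass without number 11 (1.07), with the number as a block (0.87), with DESeq2 (0.89) and with only the 10 libraries of these regions (0.90). The cerebellum was lower than each by a log2 fold change of -2.17 ± 0.36, -1.30 ± 0.35 and -1.60 ± 0.36 (SE) over the hippocampus, the amygdala and the anterior cortex, the last being -1.24 without the 3 anterior cortex libraries. Grm2 had the widest spread of the members in sham amygdala and cerebellum, where its SD was 50.2% and 61.7% of the mean. Blast libraries were less spread, at 15.1% and 30.1%.

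Grm7 was highest in the hippocampus, at 35.1 ± 4.06 CPM, followed by the amygdala at 28.5 ± 4.12, the anterior cortex at 21.3 ± 6.58 and the cerebellum at 7.50 ± 1.36 (SD, n = 5 sham libraries each). Neighbouring forebrain regions overlapped in their libraries, and all forebrain libraries exceeded all cerebellar ones. The cerebellum differed from the hippocampus by a log2 fold change of -2.22 ± 0.18 (SE), and the hippocampus from the anterior cortex by 0.73 ± 0.17 (0.84 without the 3). The amygdala over the anterior cortex, at 0.44, passed the threshold only without number 15 (0.59) among the alternatives, and was 0.54 without the 3.

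Grm8 was lowest in the hippocampus. Sham libraries 11, 13, 14, 15 and 33 gave 1.02, 2.49, 2.17, 3.87 and 0.663 CPM there, against 15.7, 12.985, 14.8, 30.4 and 11.9 CPM in the anterior cortex. No hippocampal library reached the lowest library of another region, and the other 3 regions overlapped with each other. The log2 fold change of the hippocampus was -2.36 ± 0.37 (SE) over the amygdala and -3.04 ± 0.37 over the anterior cortex (-2.68 without the 3), and that of the cerebellum over the hippocampus was 2.56 ± 0.37. Grm6, known from retinal bipolar cells, was low throughout, at 7.31 ± 0.98 CPM in sham hippocampus, 7.31 ± 1.02 in the amygdala, 2.99 ± 1.07 in the anterior cortex and 2.48 ± 0.98 in the cerebellum.

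The genes whose log2 CPM ran most like each member over the 20 sham libraries were taken from the 15695 genes tested, as a description in which libraries of 4 regions set most of the likeness. Grm4 ran most like Car8 (r = 0.988), AABR07026536.1 (0.986) and Sel1l3 (0.983), and Grm5 most like Prickle2 (0.995), Synpo (0.992) and Zfp831 (0.992). For Grm7 the closest were Lrfn5 (0.976), Mycl (0.974) and Wfs1 (0.972), for Grm8 Dpp10 (0.956), Sema3a (0.950) and Ptprm (0.945), and for Grm3 Kcnh7 (0.952), Erbin (0.948) and Ulk2 (0.946). Grm2 had the loosest matches, RGD1560034 (0.875), Stx6 (0.873) and Gpr83 (0.869). Once the mean of each of the 8 groups was taken out, Gpr83, a G protein-coupled receptor gene, was also the closest to Grm2 over all 40 libraries (r = 0.573), ahead of Tmem201 (0.547) and Cnst (0.546). Among the members themselves, the highest such value over 40 libraries was 0.596, between Grm3 and Grm5, whose levels in the anterior cortex both followed the libraries that stood apart.

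Partners of the receptors were read from a list of 44 genes of coupling, scaffolding and glutamate supply. Between blast and sham 0 of 44 tested passed in the anterior cortex and 0 of 43 in each other region, where 0% of all genes did. Unadjusted p-values under 0.05 were found for 1 of these genes in the hippocampus, 9 in the amygdala, 1 in the anterior cortex and 5 in the cerebellum, against 1.89%, 8.67%, 4.32% and 4.62% of all genes tested. The median log2 fold change of the list was 0.00 in the hippocampus, -0.06 in the amygdala, -0.12 in the anterior cortex and -0.05 in the cerebellum, beside -0.0039 to 0.0022 over all genes tested. Higher and lower in blast were 22 and 21 of the list in the hippocampus, 16 and 27 in the amygdala and 16 and 28 in the anterior cortex. Of all genes tested 49%, 49.7% and 50% were higher in these regions. In the cerebellum 51.1% of all genes tested were higher, and of the list 7 were higher and 36 lower in blast. Those with small p-values there included the G protein regulator gene Rgs8 at -0.13 ± 0.06 (SE) and the phospholipase gene Plcb3 at -0.17 ± 0.07. In the amygdala they included Gna11, a Gq family subunit, at -0.30 ± 0.08, the adenylyl cyclase gene Adcy2 at -0.17 ± 0.06, the astrocytic glutamate transporter gene Slc1a2 at -0.31 ± 0.12 and Elfn1, a synaptic adhesion partner of Grm7, at -0.21 ± 0.09. The anterior cortex gave, at unadjusted p-values of 0.0704 to 0.0734, the transporter gene Slc1a1 at 0.25 ± 0.13, the scaffold gene Homer2 at -0.41 ± 0.21 and Elfn2 at -0.35 ± 0.18. In the hippocampus the smallest p belonged to the vesicular transporter gene Slc17a8 at 0.71 ± 0.26 (unadjusted p = 0.0187, edgeR). Next by p, though with unadjusted p-values of 0.0847 to 0.217, were Adcy2 at -0.16 ± 0.08, the scaffold gene Pick1 at -0.15 ± 0.09 and Plcb3 at 0.18 ± 0.14.

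Between sham regions the same list had 14 genes called higher and 20 lower in the cerebellum than in the hippocampus, where 25.4% and 27.9% of all genes were called. Plcb4, a phospholipase gene of Purkinje cells, stood 4.003 ± 0.13 (SE, log2) higher in the cerebellum. Lower by the same scale were Elfn1 at -4.50 ± 0.22, the scaffold gene Grasp at -3.39 ± 0.17 and Slc1a1 at -1.54 ± 0.08. Over the amygdala 13 genes were called higher in the cerebellum and 20 lower (27.8% and 30.8% of all genes), with Rgs8 at 3.56 ± 0.18 and the scaffold gene Homer3 at 3.01 ± 0.17. Over the anterior cortex 13 were called higher and 22 lower (29.8% and 30.4% of all genes). The hippocampus had 13 higher and 11 lower than the amygdala (9.14% and 11.5% of all genes), with Homer3 at 2.12 ± 0.16 and the regulator Rgs4 at -2.29 ± 0.19. It had 9 higher and 17 lower than the anterior cortex (22% and 21.7% of all genes), with Plcb4 at -2.20 ± 0.12. The amygdala had 6 higher and 11 lower than the anterior cortex (10.3% and 11.4% of all genes), with Plcb4 at -1.46 ± 0.12.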

How the data were processed

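Total RNA of 40 rat brain libraries was measured. Qiazol served for RNA extraction and a NEBNext Ultra kit for the libraries, per the labels, and the submitters' processing notes name CASAVA without a version. The sources used here do not name the aligner, counter, annotation or genome build. The authors deposited whole-number read counts, FPKM, and log2 fold changes with p-values and adjusted p-values of their own test, 1 table per region. The authors also deposited a normalized signal, a rescaling of the counts by a factor for each library, which was not used further. For the unnumbered amygdala library only counts were used, which left 2 deposited columns with values of single libraries unused. Genes were joined by identifier, and 20814 of 25958 were in all 4 tables. The 80 pairs of libraries within groups differed by more than counting noise, with a smallest chi-square per degree of freedom of 6.3.

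Blast and sham were compared per region with edgeR 4.0.16 (R 4.3.3) on the counts, with filterByExpr, TMM and two-sided quasi-likelihood tests. Benjamini-Hochberg (BH) values cover all genes tested, and an adjusted p under 0.05 was a call. Sham regions were compared in 1 model of 20 libraries, and the interaction in 1 model of 40, both over genes in all 4 tables. The mean blast effect came from limma 3.58.1. DESeq2 1.42.0, other normalization, no filter, and leaving out libraries were alternatives. All members passed the filter on low counts in every comparison. Log2 CPM used a prior count of 2. The fits were tested on simulated data. Between replicates edgeR's common coefficient of variation lay at 13.6% to 27.8%.

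The 6 members, the partner list and the marker lists were chosen with earlier results of these data known. Partner genes were named by smallest p, up to 4 per blast comparison and up to 5 per sham comparison, and some that this names are not reported here. Fibcd1 was named after its values were seen.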

Additional observations from a re-analysis of the deposited data

Results flagged for a closer look

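The distance of the highest or lowest library from its nearest neighbour was checked in 48 groups of 5 libraries, 6 receptor genes in 8 groups, and 2 stood out. Chance flags about 1 in 20 such groups. Grm5 in hippocampus sham library 14 was the lowest of its group at 39.8 CPM, with the nearest at 82.8 CPM, a gap of 0.823 of the whole range. Postsynaptic scaffold genes summed to 2457 CPM in that library and to 3337 to 4674 CPM in the other 9 of the hippocampus. Grm8 in anterior cortex sham library 15 was the highest of its group at 30.4 CPM, with the nearest at 15.7 CPM, a gap of 0.796 of the whole range. That library is among the 4 that stood apart in this region, and the part of this in the Grm8 value was not tested.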

How the results depend on the processing

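The count of members called between blast and sham was 0 in every region under all alternatives run, and no called member changed direction between sham regions. Counts over all genes depended more on the setting. Genes called between blast and sham were 1 with DESeq2 in the hippocampus (0 to 1 leaving out a library), 2 without a filter and 20 with DESeq2 in the amygdala (0 to 2 leaving out a library), 34 in the model of 40 libraries and 2 without the libraries that stood apart in the anterior cortex, and 5 with DESeq2 in the cerebellum (0 to 1 leaving out a library). Members called between sham hippocampus and sham amygdala were 2, and 1 to 3 leaving out a title number, with all sham libraries that bear it. Between sham hippocampus and sham anterior cortex, 6846 genes were called, 4353 with only the 10 libraries of these regions and 4097 without anterior cortex sham libraries 11, 13 and 15. Between sham amygdala and sham anterior cortex 3415 were called, 1086 without those 3 libraries and 1421 to 5514 leaving out a number. Blast and sham share no number, so no paired fit exists there. Deviations of same-numbered sham libraries over all genes correlated at r from -0.151 to 0.439 (median 0.033), over 0.1 in 8 of 27 pairs. Of 27 libraries 11 were closest to their own number. Each was matched against the 5 sham libraries of another region, so a random pick would be right 1 time in 5, a smaller share. These values do not settle whether a number marks 1 animal. The numbers were not taken as pairs in the main fits, and a block by number was an alternative between sham regions. The replicate block by number gave 2243 genes between sham amygdala and sham anterior cortex and left the count of members called as it was in all 6 sham comparisons, with Grm2 in place of Grm4 between hippocampus and amygdala. Limits: 5 libraries a group, no link from numbers to animals, 4 anterior cortex libraries that stood apart, 3 of them sham, an amygdala label backed by 2 of 5 markers, and few reads for hippocampal Grm8.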
